A study of Mus musculus with 4 samples.

Results

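The 10 genes described here are the CSF1 receptor (Csf1r) with its ligands Csf1 and Il34, the TGF-beta ligands Tgfb1, Tgfb2 and Tgfb3, the receptor chains Tgfbr1 and Tgfbr2, the signal transducer Smad3, and Nrros, which holds latent TGF-beta. They were chosen by name, as the rows of the count table whose symbol is exactly that of a member, and all 10 were found among the 42458 rows. Microglia, the resident macrophages of the central nervous system, need the receptor tyrosine kinase CSF1R for their survival, and CSF1 or IL-34 made by neighbouring cells activates it. TGF-beta 1 is secreted in a latent form, is tethered by NRROS on the surface of myeloid cells and is released by integrins. The active ligand joins TGFBR2 to TGFBR1, which phosphorylates SMAD2 and SMAD3, and this signal is known to maintain the identity of microglia.

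All 4 mice formed 1 group, with no comparison group among them. They were wild-type C57BL6 mice given the virus AAV2-CAG-tdT by intracerebroventricular injection, and neither age nor sex is given in the labels. From each mouse, 50 live tdTomato-positive cells were sorted from dissociated spinal cord slices that contained the ependymal region, to enrich cerebrospinal fluid-contacting neurons, sensory neurons that line the central canal. The CAG promoter of the virus is active in many cell types and does not restrict tdTomato to these neurons.

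The libraries held 83007030 to 115479640 counts. The labelled enrichment was not matched by the marker genes: 6 markers of cerebrospinal fluid-contacting neurons summed to 18, 0.203, 914 and 819 CPM (counts per 1000000 counts of the library, after normalization) in mice 1, 2, 3 and 4, while 10 microglia markers summed to 50978, 51701, 32169 and 44754 CPM. Counts assigned to the transgene were 5, 58, 13533 and 153379, so the libraries of mice 1 and 2 held almost none. Oligodendrocyte markers, 8 genes, summed to 14701, 236, 18738 and 453 CPM, high in mice 1 and 3. Perivascular macrophage markers summed to 43.9 to 76.5 CPM, with 1 of 6 called above 10 CPM and Lyve1 at 0 in every library. Of the monocyte and granulocyte markers 4 of 6, and of the lymphocyte markers 4 of 5, were at 0 in every library. In libraries of pooled cells such as these, fewer cells of a type and less RNA per cell cannot be told apart.

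Csf1r was among the most abundant transcripts of every library, and both TGF-beta receptor chains, Tgfb1 and Nrros were present in all 4, whereas Il34, Tgfb2 and Tgfb3 were at or near 0 in at least 1 library each. The level of each gene was tested against a fixed reference of 10 CPM with edgeR's quasi-likelihood test, over the 18522 genes with at least 10 counts in total, and a gene was called at a Benjamini-Hochberg adjusted p under 0.05. Of the 10 members, 9 were tested and 6 were called above 10 CPM (Csf1r, Tgfbr1, Tgfbr2, Nrros, Tgfb1 and Smad3), against 36.7% of all genes tested. None was called below 10 CPM, against 0.664% of all genes, and no member with a level below 10 CPM had an unadjusted p under 0.05. Above 10 CPM, 7 members had an unadjusted p under 0.05 by this test, the 6 called and Csf1. Limma-voom called 5 members above (35.9% of all genes) and 1 below (33.3%), and DESeq2 called 5 above (34%) and 0 below (11.1%). Against a reference of 100 CPM, edgeR called 4 members above (5.82% of all genes) and 2 below (48.8%). Without mice 1 and 2, it called 5 members above 10 CPM (37% of all genes). Csf1, Il34 and Tgfb2 were not called, and Tgfb3 had too few counts to be tested. The members with at least 10 CPM in every library were 5 of the 10, against 36.5% of all genes tested. The median log2 level relative to 10 CPM was 2.99 over the 9 members tested and -0.07 over all genes tested.

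**Figure D1:**
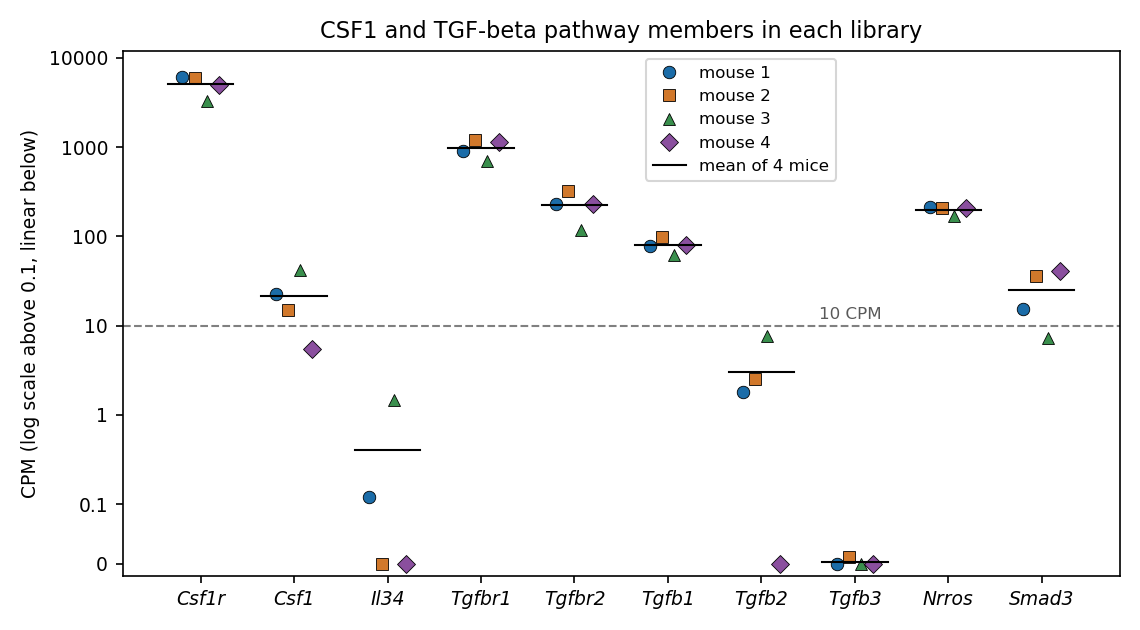
Level of the 10 members in CPM (vertical axis, log scale above 0.1 and linear below) in the library of each of 4 mice (symbols), with the mean of the 4 mice as a bar and 10 CPM as a dashed line. Csf1r lies between 3317 and 6067 CPM, Nrros lies within a narrow band from 167 to 215 CPM, and Il34, Tgfb2 and Tgfb3 reach 0 in at least 1 library.

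The receptor of the CSF1 axis was the most abundant member. Csf1r measured 6067, 5956, 3317 and 4981 CPM in mice 1, 2, 3 and 4, a mean of 5080 ± 1273 (SD, n = 4). Mouse 3 was the lowest, and the highest library was 1.83 times the lowest. The log2 level relative to 10 CPM was 8.99 with an SE of 0.04 (adjusted p = 2.8e-10, edgeR's quasi-likelihood test). Divided by exonic length, as CPM per kilobase (RPKM), Csf1r measured 1051, 1032, 574 and 863, which ranked it 37, 36, 50 and 38 among the 15442 tested genes with a gene model. It held 80.6%, 75.9%, 75.1% and 74.7% of the summed CPM of all 10 members. The counts do not keep the strand, and the gene Hmgxb3 on the opposite strand shares 873 exonic bases with Csf1r. Hmgxb3 had 1529, 4298, 749 and 688 counts, against 285932 to 655577 for Csf1r.

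Of the pair of CSF1R ligands, Csf1 was detected in every library and Il34 in only 2 of them. Csf1, encoded on the minus strand of chromosome 3 from 107741048 to 107760469 (GRCm38, as are all positions here), measured 22.8, 14.9, 41.7 and 5.5 CPM, a mean of 21.2 ± 15.4 (SD, n = 4). Mice 1 and 3 were the highest, mouse 4 was below 10 CPM, and the highest library was 7.58 times the lowest. Its log2 level was 1.09 with an SE of 0.41, which did not pass (adjusted p = 0.093, edgeR's quasi-likelihood test), but it passed without mouse 4 (adjusted p = 0.024).

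Il34, on the minus strand of chromosome 8 from 110741829 to 110805924, had 13, 0, 128 and 0 counts, or 0.120, 0, 1.48 and 0 CPM. Exact binomial intervals by the Clopper-Pearson method at 95% ran from 0.0641 to 0.206 CPM in mouse 1 and from 1.24 to 1.77 CPM in mouse 3. They cover counting error only, since PCR copies were not marked. For the counts of 0 in mice 2 and 4, the upper ends by the same method were 0.0395 and 0.0411 CPM. The floor used for ratios, 3 counts, lies at 0.0321 and 0.0334 CPM. The 2 libraries with Il34 were those with the higher Csf1, and also those with the higher sums of oligodendrocyte markers. Per 1000 CPM of oligodendrocyte markers, however, Csf1 measured 1.55, 63.3, 2.23 and 12.1 CPM in mice 1, 2, 3 and 4. All 8 oligodendrocyte markers, and 21.5% of the 9126 genes whose mean reached 10 CPM, were highest in mice 1 and 3, and the part of these cells in the Csf1 and Il34 counts was not tested. Antisense genes that overlap Il34, Gm15894 and Gm15895, had 2 and 0 counts in mouse 1 and none in mouse 3. In mouse 2, where Il34 had no count, Gm15895 had 26.

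Per length, Csf1 exceeded Il34 in 4 of 4 libraries. The ratio was 70.2-fold in mouse 1 and 10.4-fold in mouse 3, and at least 172-fold and 61.1-fold in mice 2 and 4, where Il34 was set to 3 counts. The log2 ratio of RPKM + 0.1 was 4.09 ± 0.85 (SD, n = 4). This and 7 other gene pairs were compared within libraries by an exact permutation test that flips signs (two-sided). Each of the 8 pairs had the same sign in every mouse, which 2 of the 16 sign patterns give, and this is the smallest p the design allows, so that no pair could pass 0.05 before or after adjustment. Receptor RNA exceeded ligand RNA in every library: Csf1r was 244, 365, 72.7 and 828 times Csf1 per length. The ratio was lowest in mouse 3, where Csf1 was highest and Csf1r lowest, and highest in mouse 4, where Csf1 was lowest. The log2 ratio of Csf1r over Il34 was 12.12 ± 1.84 (SD, n = 4), with Il34 at 0 in 2 libraries.

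Among the TGF-beta ligands, Tgfb1 was the one present throughout. Tgfb1 (chromosome 7, 25687002 to 25705077, plus strand) measured 77.8, 97.5, 61.3 and 80.6 CPM, a mean of 79.3 ± 14.8 (SD, n = 4). Mouse 2 was the highest and mouse 3 the lowest. Its log2 level was 2.99 with an SE of 0.11 (adjusted p = 1.4e-06, edgeR's quasi-likelihood test).

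Tgfb2 (chromosome 1, 186622792 to 186705989, minus strand) had 196, 238, 662 and 0 counts, or 1.81, 2.55, 7.68 and 0 CPM. It was highest in mouse 3 and without a count in mouse 4, where the upper end of the interval was 0.0411 CPM. The antisense gene Gm29491, which has no row among the counts, shares 124 exonic bases with it. The log2 level of Tgfb2, -1.73 with an SE of 1.65, was not called (adjusted p = 0.41, edgeR's quasi-likelihood test). Tgfb3 (chromosome 12, 86056745 to 86079041, minus strand) had a single count in all, in mouse 2. On the other strand it shares 163 exonic bases with Gm37804 and 257 with Gm48008, which have no row among the counts, and none with Ttll5.

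Per length, Tgfb1 was 49.3, 44.0 and 9.17 times Tgfb2 in mice 1, 2 and 3 and at least 2770 times Tgfb2 in mouse 4. The log2 ratio of RPKM + 0.1 was 5.21 ± 1.73 (SD, n = 4) and positive in 4 of 4 libraries. Against Tgfb3 it was at least 1881-fold in mouse 1, 1182-fold in mouse 3 and 1618-fold in mouse 4.

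The DNA just upstream of the start sites is shown for these 2 ligand genes, which lie far apart in level, and for both receptor chains and Nrros, which were called. Each sequence holds the 250 bases before the RefSeq start site (GRCm38.p6), 5′ to 3′ on the strand of the gene. Capitals mark matches, on either strand, to 4 short motifs: the GC box GGGCGG, the PU.1-type Ets core GAGGAA, the Smad-type element CAGAC and the TATA box TATAAA.
Tgfb1: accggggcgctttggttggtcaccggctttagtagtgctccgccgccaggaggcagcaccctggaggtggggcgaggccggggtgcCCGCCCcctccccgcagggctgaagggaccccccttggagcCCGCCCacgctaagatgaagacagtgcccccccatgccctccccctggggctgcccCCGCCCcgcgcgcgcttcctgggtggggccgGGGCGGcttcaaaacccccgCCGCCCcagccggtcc
Tgfb2: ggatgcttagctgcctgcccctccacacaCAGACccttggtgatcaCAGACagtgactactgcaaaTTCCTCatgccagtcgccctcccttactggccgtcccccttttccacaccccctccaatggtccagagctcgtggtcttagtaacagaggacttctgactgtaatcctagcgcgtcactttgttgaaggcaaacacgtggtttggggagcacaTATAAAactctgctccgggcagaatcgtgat
Tgfbr1: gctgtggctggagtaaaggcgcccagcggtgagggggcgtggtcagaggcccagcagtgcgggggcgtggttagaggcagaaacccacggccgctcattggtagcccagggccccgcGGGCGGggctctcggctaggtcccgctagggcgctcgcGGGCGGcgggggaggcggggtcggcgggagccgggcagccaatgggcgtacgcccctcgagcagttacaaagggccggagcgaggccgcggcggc
Tgfbr2: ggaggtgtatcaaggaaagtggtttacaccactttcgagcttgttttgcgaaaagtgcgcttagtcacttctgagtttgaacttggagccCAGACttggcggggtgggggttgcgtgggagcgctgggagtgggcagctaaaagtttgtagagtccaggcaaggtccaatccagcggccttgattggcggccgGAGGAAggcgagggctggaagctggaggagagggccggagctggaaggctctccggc
Nrros: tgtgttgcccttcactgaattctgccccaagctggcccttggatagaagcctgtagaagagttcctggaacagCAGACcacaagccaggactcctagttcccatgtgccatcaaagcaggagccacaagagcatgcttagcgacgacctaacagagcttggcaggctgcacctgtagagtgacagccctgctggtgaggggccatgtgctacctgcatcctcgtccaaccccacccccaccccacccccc
The windows are chr7:25686752-25687001 (plus strand) for Tgfb1, chr1:186705990-186706239 (minus) for Tgfb2, chr4:47352972-47353221 (plus) for the first of 2 listed starts of Tgfbr1, chr9:116175364-116175613 (minus) for Tgfbr2 and chr16:32165595-32165844 (minus) for Nrros.

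The pair of ligand windows differed in base composition. The Tgfb1 window was 75.2% G or C and held 5 GC boxes and none of the other motifs. The Tgfb2 window was 53.6% G or C and held 2 CAGAC elements, 1 Ets core and 1 TATA box, with no GC box. The printed Tgfbr1 window was 74.8% G or C with 2 GC boxes, whereas that of its second listed start was 52.8% G or C with 1 Ets core, 1 CAGAC element and no GC box. The windows of Smad3 (69.2% G or C) and Csf1 (56.4%) held 2 GC boxes each. The Tgfbr2 window was 58.4% G or C with 1 Ets core and 1 CAGAC element, and the Nrros window, also 58.4%, held 1 CAGAC element. Such matches are common: over 32817 mouse windows of the same length, 32.7% held a GC box, 42.2% a CAGAC element, 23.3% the Ets core and 12.4% the TATA box, and the median G and C content was 52.4%. Windows were read for 7 of the 10 members. A match is a stretch of letters and not a measured binding site.

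Both chains of the TGF-beta receptor were abundant. Tgfbr1, the type I chain with the kinase that phosphorylates SMAD2 and SMAD3 (chromosome 4, 47353222 to 47414931, plus strand), measured 894, 1202, 695 and 1128 CPM, a mean of 980 ± 231 (SD, n = 4). Tgfbr2, the ligand-binding type II chain (chromosome 9, 116084293 to 116175360, minus strand), measured 231, 326, 118 and 230 CPM, a mean of 226 ± 85.2 (SD, n = 4). Mouse 3 was the lowest for both chains and mouse 2 the highest. The log2 levels were 6.61 with an SE of 0.06 for Tgfbr1 (adjusted p = 4.5e-09) and 4.50 with an SE of 0.13 for Tgfbr2 (adjusted p = 3.5e-07), both by edgeR's quasi-likelihood test. Per length, Tgfbr1 was 4.84, 4.62, 7.4 and 6.15 times Tgfbr2, a log2 ratio of 2.49 ± 0.31 (SD, n = 4).

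Nrros, the myeloid tether of latent TGF-beta (chromosome 16, 32142785 to 32165594, minus strand), varied least of the members. It measured 215, 208, 167 and 207 CPM, a mean of 199 ± 21.8 (SD, n = 4). Mouse 3 stood below the other 3, which lay between 207 and 215 CPM. The log2 level was 4.32 with an SE of 0.08 (adjusted p = 5.6e-08, edgeR's quasi-likelihood test). Its relative Lrrc32, which encodes the tether GARP of regulatory T cells and platelets, had no count in any library. Nrros was therefore at least 8695, 7277, 5390 and 6966 times Lrrc32 per length, with Lrrc32 set to 3 counts. The sign of this ratio is fixed by the zeros and its permutation test is not read.

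Smad3, the transducer (chromosome 9, 63646767 to 63757994, minus strand), was the most variable of the 6 members called. It measured 15.5, 36.2, 7.23 and 40.4 CPM, a mean of 24.8 ± 16 (SD, n = 4). Mice 2 and 4 were high, mouse 3 was below 10 CPM, and the highest library was 5.60 times the lowest. Its log2 level of 1.31 with an SE of 0.37 passed (adjusted p = 0.034, edgeR's quasi-likelihood test), but the call was lost with limma-voom (adjusted p = 0.063), with DESeq2 (adjusted p = 0.07), without mouse 2 (adjusted p = 0.16) and without mouse 4 (adjusted p = 0.23). Smad2, the other receptor-activated Smad of this pathway, measured 123, 89.3, 112 and 109 CPM. Per length, Smad3 was 0.199, 0.642, 0.102 and 0.588 times Smad2, lower in 4 of 4 libraries (log2 ratio -1.72 ± 1.24, SD, n = 4).

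**Figure D2:**
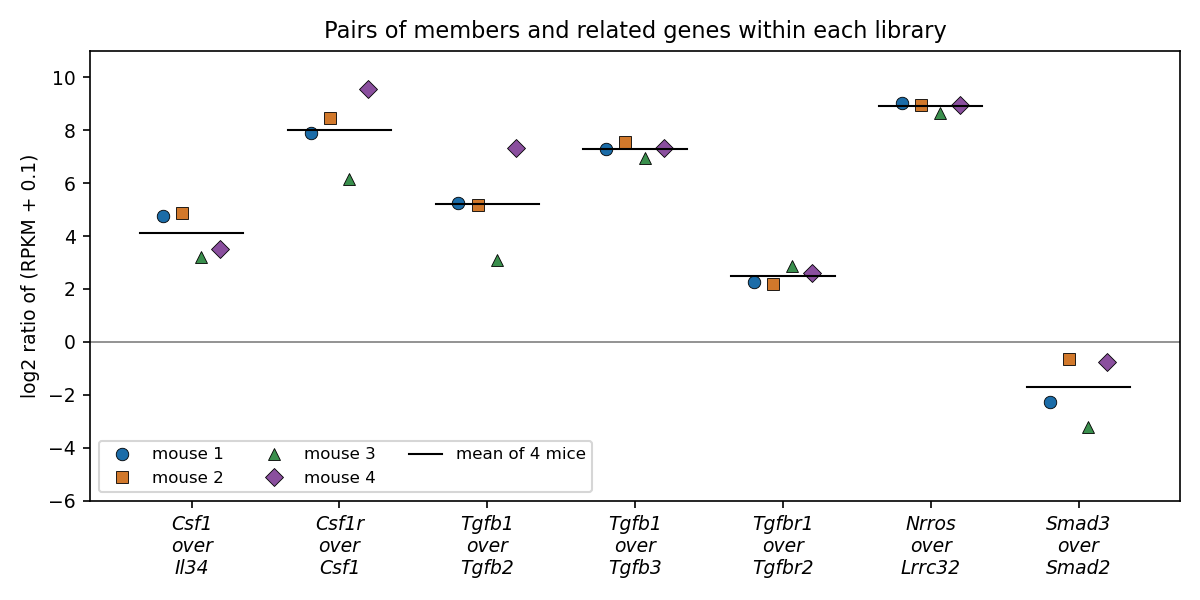
Log2 ratio of RPKM + 0.1 (vertical axis) for 7 of the 8 gene pairs in the library of each of 4 mice (symbols), with the mean of the 4 mice as a bar. Every point lies above 0 except those of Smad3 over Smad2, which lie below 0 in 4 of 4 libraries, and the ratio of Tgfbr1 over Tgfbr2 spreads least among the pairs with no library at 0.

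Ordered by mean RPKM, the members were Csf1r (880 ± 220, SD, n = 4), Tgfbr1 (150 ± 35.3), Nrros (47.8 ± 5.23), Tgfbr2 (27.6 ± 10.4), Tgfb1 (15.7 ± 2.94), Smad3 (4.48 ± 2.89), Csf1 (4.02 ± 2.91), Tgfb2 (0.520 ± 0.568), Il34 (0.205 ± 0.370) and Tgfb3, with its single count. From Csf1r to Tgfb1, each member exceeded the next in 4 of 4 libraries by exonic length, although the ranges of Tgfbr2 and Tgfb1 overlapped. The order of Tgfbr2 and Tgfb1 depends on the length used. The longest transcript of Tgfb1 has 2573 bases against an exonic length of 5042, and that of Tgfbr2 has 8092 against 8187. Smad3 and Csf1 could not be ordered: Smad3 was the higher in 2 of 4 libraries. Csf1 exceeded Tgfb2 in 4 of 4 libraries, with overlapping ranges, and Tgfb2 exceeded Il34 in 3 of 4. The means of the last 2 rest on mouse 3: without it, the mean of Il34 went from 0.401 to 0.0401 CPM and that of Tgfb2 from 3.01 to 1.45 CPM.

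The members called above 10 CPM shared a low library. All 6 were lowest in mouse 3, as were 9 of the 10 microglia markers and 28.4% of the 9126 genes whose mean reached 10 CPM. The sum of the microglia markers was itself lowest in mouse 3, and the sums of 6 other marker lists were highest there. These were the markers of oligodendrocytes, their precursors (0.650 CPM), astrocytes (856 CPM), neurons (749 CPM) and cerebrospinal fluid-contacting neurons (914 CPM), and 5 fibroblast markers. The fibroblast sums were 11.4, 0.203, 1024 and 116 CPM, with Dcn at 990 CPM in mouse 3 and Slc6a13 at 0 in every library. Aldoc held 847 CPM of the astrocyte sum in mouse 3. Of the other astrocyte markers, Aldh1l1 and Slc1a2 were highest in mouse 3, at 0.116 and 0.290 CPM. Gfap was highest in mouse 2, and Aqp4 and Gja1 in mouse 4. Csf1, Il34 and Tgfb2 were also highest in mouse 3, and the part of the cell types of the 6 lists in their counts was not tested. Divided by the microglia sum, Csf1r measured 119, 115, 103 and 111 CPM per 1000 CPM of microglia markers, and its coefficient of variation (CV, the SD over the mean) went from 0.251 to 0.0607. Tgfb1 measured 1.53, 1.89, 1.91 and 1.80 on this scale, with a CV of 0.0983 against 0.187 before. The CV of Tgfbr1 went from 0.235 to 0.149 and that of Tgfbr2 from 0.377 to 0.226.

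Nrros, Smad3 and Csf1 did not become tighter to the same degree. Nrros measured 4.22, 4.03, 5.19 and 4.64 CPM per 1000 CPM of microglia markers, with a CV of 0.114 against 0.110 before, and mouse 3 became its highest library. The CV of Smad3 was 0.606 against 0.645, with mice 2 and 4 still high, and that of Csf1 rose from 0.724 to 0.970. For comparison, the median CV of the CPM of the 9126 genes was 0.343. Those genes were not divided by the microglia sum, so the changes of CV have no background over all genes. These changes of spread carry no test, and the part of each cell type in them was not tested.

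**Figure D3:**
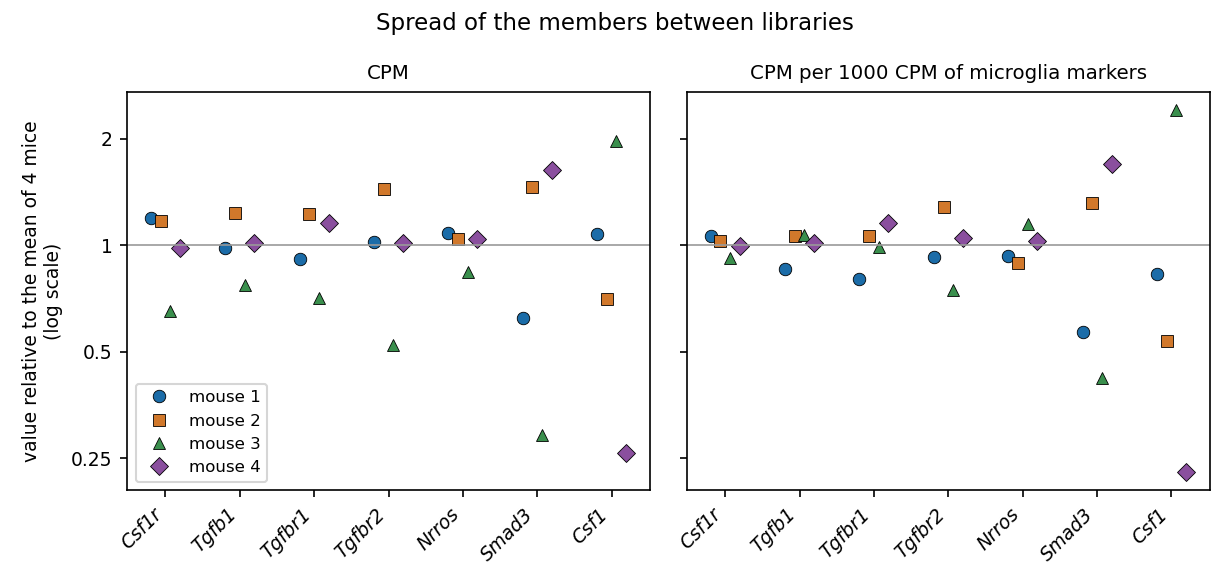
Value of 7 members in the library of each of 4 mice (symbols) relative to the mean of the mice (vertical axis, log scale), for CPM in the left panel and for CPM per 1000 CPM of 10 microglia markers in the right panel. The points of Csf1r draw together on the right, where its CV is 0.0607 against 0.251, while those of Smad3 and Csf1 stay apart.

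For each of the 6 called members, the genes with the most similar pattern over the 4 mice were taken from 9125 genes, by the root mean square difference of centred log2(CPM + 1). Those nearest to Csf1r were Ptpn1, a tyrosine phosphatase (difference 0.0116, with 158, 158, 87.8 and 131 CPM), Icosl and Ptpn6. Tgfb1 lay nearest to Zmynd8, Bnip1 and Tnfrsf1a, Tgfbr1 to Kdm3b, Fes and Jund, and Tgfbr2 to Pctp, Syk and Trmt5. The genes nearest to Nrros were Pak2, Gpatch8 and Lpcat2. For Smad3 they were Rtp4, Gm3173 and Bach1, at a larger difference (0.103 for Rtp4, with 53.4, 104, 25.2 and 115 CPM). With 4 libraries that share their sorting and depth, such likeness is a description.

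The other genes of both pathways were read from 10 lists of 99 genes, in the same fit across all genes, with the background of 36.7% of genes called above 10 CPM. That background is over the genes tested, whereas the counts below are over all genes listed, including those with too few counts to be tested. No gene of these lists was called below 10 CPM, against 0.664% of all genes, and on simulated counts this test called no low gene. Limma-voom called 9 of the 99 below 10 CPM (33.3% of all genes) and DESeq2 called 2 (11.1%). Of 20 genes that act downstream of CSF1R, 15 were called above 10 CPM, and the median log2 level of the 20 was 3.17 against -0.07 over all genes. Tyrobp, which encodes the adaptor DAP12, measured 1291, 2092, 1006 and 1643 CPM. The Src-family kinase gene Lyn had a mean of 596 ± 125 CPM (SD, n = 4) and the phosphatase gene Ptpn6 a mean of 498 ± 125 CPM (SD, n = 4). All 3 were lowest in mouse 3, as Csf1r was. So were 12 of the 20 genes in all, and 28.4% of the 9126 genes whose mean reached 10 CPM.

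Of 7 transcription factor genes known to act on Csf1r, 6 were called, with a median log2 level of 3.58. Irf8 measured 334, 457, 227 and 342 CPM, and Spi1, which encodes PU.1, measured 250, 402, 206 and 271 CPM. Both were lowest in mouse 3, as were 5 of the 7 in all and 28.4% of the 9126 genes whose mean reached 10 CPM. Of the other IL-34 receptors and the enzymes that shed receptors from the cell surface, 2 of 4 were called. These were the proteases Adam10 (305 ± 69.5 CPM, SD, n = 4) and Adam17 (192 ± 24.5 CPM, SD, n = 4). The other receptors for IL-34 were at low levels: Sdc1 did not exceed 1.73 CPM in any library and Ptprz1 did not exceed 0.583 CPM.

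CSF1R belongs to the class III receptor kinases, and the other kinases of this class were at low levels. Pdgfra and Pdgfrb had no count in any library, Flt3 measured 0.0740 to 0.476 CPM, and Kit measured 0, 0, 4.86 and 17.0 CPM, present in mice 3 and 4. All 6 neuron markers, all 6 markers of cerebrospinal fluid-contacting neurons and 3 of 6 ependymal markers were also highest in mice 3 and 4. So were 16.5% of the 9126 genes whose mean reached 10 CPM, and the part of these cell types in the Kit counts was not tested. Of their ligands, Pdgfb (36.1, 42.7, 24.4 and 45 CPM) and Pdgfa (35.5, 27.0, 50.8 and 14.6 CPM) were called above 10 CPM. This made 2 of the 8 genes, of which 6 were tested. Without mice 1 and 3, 1 of the 8 was called. Kitl measured 20.4, 28.4, 5.76 and 7.85 CPM and Flt3l measured 11.4, 10.5, 3.07 and 5.13 CPM, and neither was called. Both were higher in mice 1 and 2 than in mice 3 and 4.

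Of 13 genes for the latency and activation of TGF-beta, 9 were tested, with a median log2 level of -0.34. Of these 9, 3 were called above 10 CPM, all of them integrin chains. Itgb5 measured 1356, 1657, 950 and 1284 CPM, Itgb1 had a mean of 321 ± 29.6 CPM (SD, n = 4) and Itgav, the alpha chain that pairs with both, a mean of 94.2 ± 19.2 CPM (SD, n = 4). Of the other integrin chains, Itgb3 measured 12.5 to 21.7 CPM and was not called, and Itgb6 had 1 count in all. Of the latent TGF-beta binding proteins, Ltbp1 and Ltbp2 had no count in any library, Ltbp3 reached 5.45 CPM (0, 0, 132 and 489 counts) and Ltbp4 reached 2.83 CPM (306, 0, 159 and 0 counts). Lrrc32 had no count. Itgb8, whose integrin with the Itgav chain is a known activator of latent TGF-beta, measured 9.85, 0, 6.18 and 0.0111 CPM. It was highest in mice 1 and 3, as the oligodendrocyte markers were, and that link was not tested. Those libraries were the highest for 2 of these 13 genes and for 21.5% of the 9126 genes whose mean reached 10 CPM.

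Other receptors of the superfamily were called in 7 of 9 cases, with a mean RPKM of at most 9.59 (Eng) against 150 for Tgfbr1. Bmpr2 measured 21.6, 76.5, 36.7 and 93.5 CPM, Eng had a mean of 38.8 ± 8.31 CPM (SD, n = 4) and Bmpr1a a mean of 28.7 ± 15.3 CPM (SD, n = 4). This count fell to 4 of 9 without mouse 2. Of 15 Smads and Smad regulators, 11 were called, with a median log2 level of 2.39, and Smad9 had no count. The 3 with the highest mean CPM encode inhibitors of the pathway that TGF-beta is known to induce: Skil (237, 265, 165 and 268 CPM), Ldlrad4 (189, 251, 117 and 187 CPM) and Pmepa1 (98.3, 239, 97.7 and 199 CPM). Pmepa1 was high in mice 2 and 4, the libraries in which Smad3 was high. Those 2 libraries were the highest for 4 of these 15 genes and for 21.8% of the 9126 genes whose mean reached 10 CPM. A link of Pmepa1 to Smad3 was not tested.

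Textbook target genes of TGF-beta were called in 3 of 8 cases, with a median log2 level of 1.2 over the 6 tested. Junb measured 2452, 1957, 949 and 1662 CPM and is also known to respond to cell dissociation. Tgfbi measured 125, 71.1, 42.4 and 55.9 CPM. Cdkn1a measured 102, 10.9, 143 and 11.6 CPM, high in mice 1 and 3 as the oligodendrocyte markers were, and that link was not tested. Col1a1 had no count.

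**Figure D4:**
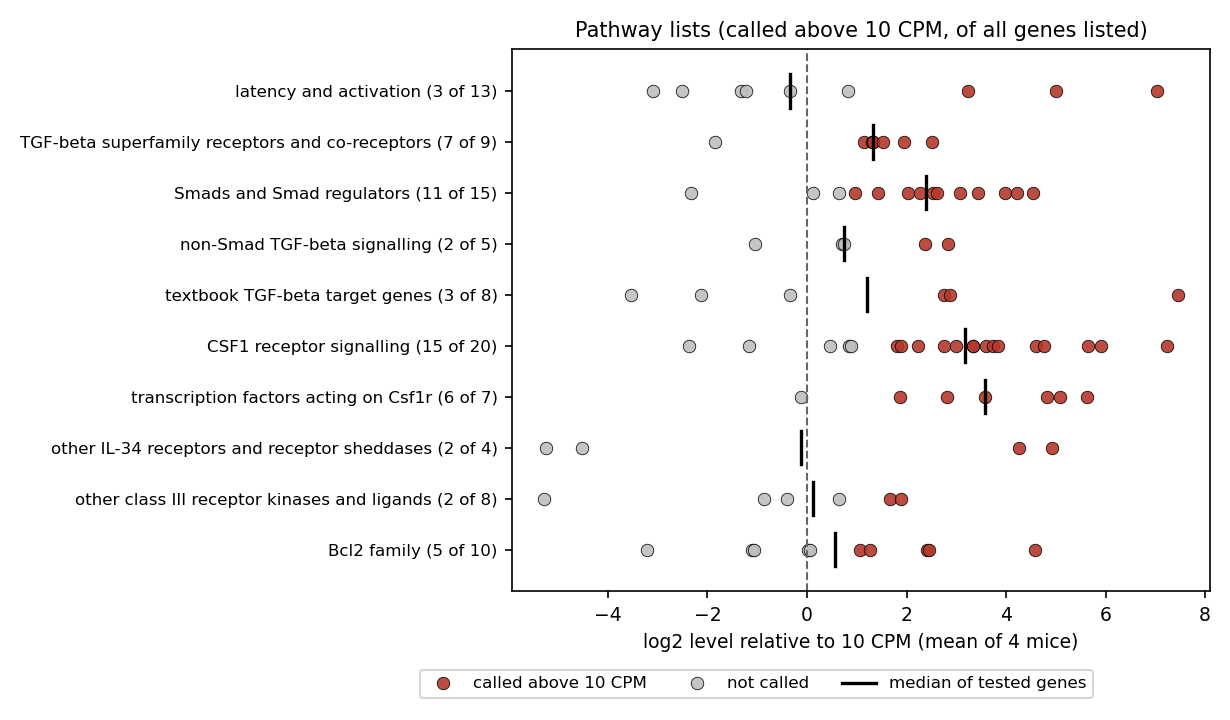
Log2 level relative to 10 CPM (horizontal axis, fitted over 4 mice) of each tested gene of the 10 pathway lists, red where called above 10 CPM and grey where not called, with the median of the tested genes as a bar. The transcription factors acting on Csf1r (6 of 7 called) and the CSF1 receptor signalling genes (15 of 20) lie mostly to the right of 0, and the latency and activation genes (3 of 13) spread widely on both sides.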

How the data were processed

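Whole-number gene counts were deposited by the authors, in 2 columns per mouse, beside a log2 table. The deposited log2 values are, from the numbers themselves, log2 of the summed counts over a size factor, plus 1, and they were checked against the counts and used only as an alternative for the pair ratios. The tools named in the submitters' processing notes are STAR, RSEM, DESeq2, FastQC and Trim Galore, and the build is mm10. What each did, its version, the gene annotation and any rounding were not given in the sources used here. Per the labels, SMART-Seq v4 with 11 PCR cycles and Nextera XT were used, which keep neither the strand nor molecular identifiers.

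The columns carry numbers taken as those of the mice. The 2 runs of a mouse were summed, and a member with at least 1000 counts in each run differed at most 1.03-fold between runs. At fewer counts, the largest difference computed was 1.29-fold, for Smad3 in mouse 3 (350 and 273 counts). CPM use TMM factors (edgeR 4.0.16, R 4.3.3). The level test is an intercept-only quasi-likelihood F test computed from edgeR's deviances. On simulated counts at 17147 genes, 72% of genes at 40 CPM and 91% at 160 CPM were called above 10 CPM, 3.52% of genes at 10 CPM were, and none at 0.625 or 2.5 CPM was called below, so the test cannot be read for low levels. DESeq2 1.42.0 and limma 3.58.1 were alternatives, beside other scalings, filters, reference levels, single runs and left-out mice. RPKM use exonic lengths from GENCODE M21, and pair ratios a pseudocount of 0.1. Python 3.11.15 with scipy 1.17.1, pandas 2.3.3 and numpy 2.4.6 gave the other values.

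The members and lists were chosen with earlier results of these data known. Named are all members, the 3 genes of each list with the highest mean CPM, all other class III genes, and the 3 genes of nearest pattern per called member. A gene that this rule takes is not reported here. List genes and marker genes at 0 in every library, the genes of the gene pairs and the overlapping genes were named after their values were seen. So were Ltbp3, Ltbp4, Itgb3, Itgb6, Itgb8, Ptprz1, Dcn and the astrocyte markers.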

Additional observations from a re-analysis of the deposited data

Results flagged for a closer look

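Of 27 sets of 4 values examined, 6 had a library far from the others, by the gap of that library to its nearest neighbour divided by the range of all 4, above Dixon's critical value for 4 samples. Chance flags about 1 in 20 independent sets, a rate that does not apply here, since 3 of the 6 share the Il34 values, 2 share those of Nrros (Lrrc32 is at 0 throughout) and a gene with a count in a single library always gives 1.0. For Il34 in CPM the ratio was 0.919, with mouse 3 high at 1.48 CPM, and for Il34 per CPM of the microglia markers it was 0.949, again with mouse 3 high. For Tgfb3 it was 1.0, which is a single count in mouse 2. For Nrros in CPM it was 0.841, with mouse 3 low at 167 CPM. For the log2 ratio of Csf1r over Il34 it was 0.832 and for that of Nrros over Lrrc32 it was 0.857, both with mouse 3 low.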

How the results depend on the processing

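Csf1r, Tgfbr1, Tgfbr2 and Nrros were called above the reference under every setting run, and Tgfb1 under every one except a reference of 100 CPM. The number of members called above ranged from 4 (reference of 100 CPM) to 7 (reference of 1 CPM), and from 5 to 6 when 1 mouse was left out. No member was called below 10 CPM, but 1 was with limma-voom (Il34), 1 without a filter on counts (Tgfb3) and 2 below a reference of 100 CPM (Csf1 and Smad3). At that reference the log2 levels were -2.24 for Csf1, -0.33 for Tgfb1 and -2.01 for Smad3, and at a reference of 1 CPM that of Tgfb2 was 1.59, since the reference itself moved. Smad3 lost its call in the settings given above and without mice 1 and 2 (adjusted p = 0.18 by edgeR), a pair left out together after seeing the data, as were mice 1 and 3. The receptors of the superfamily called above were 4 to 6 of 9 when 1 mouse was left out and 4 without mice 1 and 2, against 7. The other class III genes called were 1 without mice 1 and 3, against 2. The cause was not tested. The 88 alternative values of the pair ratios kept their direction, those from the deposited log2 table included. With the same sign in every mouse, leaving out a mouse or changing the pseudocount could not reverse a mean ratio. Those settings are therefore no support, nor is any setting for Nrros over Lrrc32, where Lrrc32 is at 0. The 60 alternative values of the mean CPM moved by less than 1 SD. Leaving out 1 of 4 mice cannot move a mean by 1 SD of the same 4 values, so this is not read as stability. For Il34 and Tgfb2 that SD is itself set by mouse 3, without which their means were 0.0401 and 1.45 CPM, against 0.401 and 3.01. No paired comparison of groups was possible because the 4 mice form 1 group, and the gene pairs were compared within each mouse. Counts limit Il34 and Tgfb3, at 3 counts or 0.0278 to 0.0348 CPM.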

Other observations

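Genes of the Bcl2 family, which set the threshold for cell death, were called above 10 CPM in 5 of 10 cases, against 36.7% of all genes, with a median log2 level of 0.56. Mcl1, which protects cells, measured 416, 258, 127 and 159 CPM, highest in mouse 1. Bax, which promotes death, measured 46.4, 51.7, 55.5 and 65.4 CPM, and the protective Bcl2l1 measured 48.0, 49.9, 63.2 and 52.5 CPM, so that neither followed the low values of Csf1r in mouse 3. Of 5 genes of the branch of TGF-beta signalling that runs through the kinase TAK1, 2 were called: Map3k7, which encodes TAK1, with a mean of 52.0 ± 17.9 CPM (SD, n = 4), and its partner Tab2, with 51.6, 138, 46.0 and 50.2 CPM, highest in mouse 2. Traf6 measured 15.7, 21.0, 8.43 and 21.7 CPM and was not called.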
